A study of Mus musculus with 18 samples.

Results

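The response of mouse macrophages to a short course of CpG DNA was followed through the accessibility of their chromatin. Of the 18 libraries deposited for 9 treatments, 4 carry this contrast. They are the 2 that received fresh medium for 4 h and then 100 nM CpG for 4 h (MC), and the 2 that received medium for 4 h and medium again for 4 h (MM). All 53796 deposited regions were compared, since the contrast was chosen by treatment and not by any measured value. Every group came from wild-type C57BL/6 mice aged 6 to 12 weeks, whose bone marrow cells were grown with 20 ng/mL M-CSF into bone marrow-derived macrophages (BMDMs) and replated on day 7. The same cells without a first stimulus were given 1 ng/mL LPS (ML) or 1 µg/mL polyI:C (MP) in place of CpG, and those 4 libraries are used below for direct comparison. Other cells received CpG first for 4 h and 10 ng/mL TNF for the next 4 h (CT), beside cells given medium and then TNF (MT). M-CSF cultures of whole marrow are the model here, and tissue macrophages were not measured. The labels number the replicates 1 and 2 but do not say whether they came from separate mice or cultures, so the p-values refer to the variation among these libraries, which may be technical.

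CpG DNA is unmethylated bacterial-type DNA that is sensed inside endosomes by the receptor Tlr9. Tlr9 is carried there by the chaperone Unc93b1 and trimmed by endosomal proteases, and it signals through the adaptor Myd88 and the Irak kinases. That route activates the NF-kB and AP-1 transcription factors and interferon regulatory factors, which open chromatin at cytokine, chemokine and feedback genes. LPS is sensed by Tlr4 through Myd88 and Ticam1, and polyI:C, a double-stranded RNA mimic, by Tlr3 through Ticam1 and by cytosolic sensors. ATAC-seq reads out open chromatin through the insertion of adapters by a transposase. A region's value is given as log2 CPM, its read count scaled to library size, so a difference of 1 is a doubling.

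The sequences shown first belong to promoters and microRNAs whose chromatin became more accessible. They are picked examples and do not represent all such promoters. Each promoter line gives the 250 bases before the RefSeq start of the gene (GRCm38.p6), read in the direction of the gene, and capitals mark matches to GGGNNTTNC (the start of an NF-kB motif) or GAAANNGAA (the core of the interferon-stimulated response element, ISRE) on either strand. Cxcl10 (chr5:92348890-92349139, minus strand) and Gbp5 (chr3:142496684-142496933, plus strand) hold both motifs, Il6 (chr5:30012864-30013113, plus strand) the NF-kB motif, Irgm1 (chr11:48871421-48871670, minus strand) a pair of overlapping ISRE matches, and Acod1 (chr14:103046762-103047011, plus strand) neither.
Cxcl10: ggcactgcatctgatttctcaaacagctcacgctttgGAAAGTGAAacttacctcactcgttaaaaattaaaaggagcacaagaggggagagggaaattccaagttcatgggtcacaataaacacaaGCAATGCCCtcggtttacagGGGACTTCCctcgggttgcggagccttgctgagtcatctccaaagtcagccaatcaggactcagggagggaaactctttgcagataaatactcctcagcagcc
Gbp5: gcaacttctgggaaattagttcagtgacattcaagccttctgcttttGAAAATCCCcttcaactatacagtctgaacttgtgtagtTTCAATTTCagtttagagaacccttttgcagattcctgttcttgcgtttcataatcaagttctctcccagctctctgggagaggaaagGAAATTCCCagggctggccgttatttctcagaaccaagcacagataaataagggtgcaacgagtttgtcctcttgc
Il6: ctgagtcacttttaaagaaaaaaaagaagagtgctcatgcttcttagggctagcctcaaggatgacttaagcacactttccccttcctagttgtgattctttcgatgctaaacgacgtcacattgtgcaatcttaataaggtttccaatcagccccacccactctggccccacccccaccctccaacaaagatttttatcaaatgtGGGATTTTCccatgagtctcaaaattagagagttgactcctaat
Irgm1: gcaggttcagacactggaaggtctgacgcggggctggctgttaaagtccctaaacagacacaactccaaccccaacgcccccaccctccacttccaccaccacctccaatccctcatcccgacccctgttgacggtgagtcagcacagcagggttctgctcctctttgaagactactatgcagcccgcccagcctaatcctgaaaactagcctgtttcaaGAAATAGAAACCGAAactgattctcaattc
Acod1: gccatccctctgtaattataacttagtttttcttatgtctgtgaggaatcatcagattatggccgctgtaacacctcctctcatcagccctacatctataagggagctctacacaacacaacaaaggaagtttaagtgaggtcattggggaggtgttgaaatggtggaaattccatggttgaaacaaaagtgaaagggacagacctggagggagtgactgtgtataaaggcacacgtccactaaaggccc
Counted from the start, with negative positions before it, the Cxcl10 matches began at -213 (ISRE), -123 and -103 (both NF-kB). Those in Gbp5 began at -203 and -76 (NF-kB) and -164 (ISRE), the match in Il6 at -44, and those in Irgm1 at -30 and -24. The labels name the letters matched and not known binding sites. Stretches with a similar but different spelling, such as gggaaattcc in Cxcl10, stay in lower case.

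The mature microRNAs below are encoded at sites where CpG raised accessibility, with the seed (bases 2 to 8) in capitals. MiR-146a-5p and miR-146b-5p are encoded on different chromosomes and share 1 seed.
miR-155-5p: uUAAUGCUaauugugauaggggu
miR-146a-5p: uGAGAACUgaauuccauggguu
miR-146b-5p: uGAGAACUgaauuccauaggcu
miR-21a-5p: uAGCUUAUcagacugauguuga

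Reads in regions ranged from 3141641 to 5695271 in the 4 libraries, with the lowest number in the second medium library, and the median region held 40 to 70 reads. Replicates correlated across regions at Pearson's r = 0.967 for medium and 0.966 for CpG. The 2 polyI:C libraries agree within sampling noise and entered as 1 sample. Chi-square per degree of freedom between replicate read counts, which is 1 for counting noise alone, was 1.003 for that pair. It was 1.078 for medium, 1.069 for LPS and 1.257 for CpG, so the medium and LPS pairs were also close to counting noise. The spread was unequal among the 9 groups of the fit, and reached 1.598 for CT and 2.714 for PT (polyI:C, then TNF). As a check of the cell label, 16 of the 17 macrophage identity genes with a start in the reference had a region within 1 kb of it, against 1 of 11 T and NK cell marker genes, 1 of 5 B cell, 2 of 12 neutrophil, 2 of 7 dendritic cell, 3 of 10 erythroid and progenitor, and 2 of 7 fibroblast, stroma and endothelium marker genes. Counted by nearest gene within 50 kb, all 24 macrophage identity genes had a region. So did 8 of 15 T and NK cell marker genes, 3 of 9 B cell and 8 of 12 neutrophil marker genes. The numbers were 7 of 9 for dendritic cells, 5 of 10 for erythroid and progenitor cells, and 8 of 13 for fibroblast, stroma and endothelium. The summed start regions of the fibroblast, stroma and endothelium list came to 15.6 and 18.8 CPM in medium and 22.3 and 19.4 CPM in CpG. The 1 T and NK region, at Klrb1c, had 15.5 and 17.8 CPM in medium and 32.1 and 32.9 CPM in CpG. The part of other cells in the results was not tested. Since each library is a pool of cells, a change in the share of cells with an open region and a change in openness per cell cannot be told apart.

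Among the deposited regions, CpG made many more accessible than it closed. At an adjusted p under 0.05 (limma), 9269 regions were higher in CpG, which is 17.2% of those tested, and 4730 were lower, which is 8.79%. The rises were also larger. Their median difference was 1.00, and 4628 of them were at least 2-fold, 971 at least 4-fold and 171 at least 8-fold. The falls had a median difference of -0.72, with 766 of at least 2-fold, 11 of at least 4-fold and 0 of at least 8-fold. The libraries of the 2 groups did not overlap at 9262 of the rises, 4728 of the falls and 33898 of all 53796 regions. Assigned to the nearest protein-coding gene within 50 kb, the rises lay at 4367 genes and the falls at 2853, and 1230 genes had both. Assignment by distance does not show which gene a region serves. Fewer falls were called when any 1 of the 4 libraries was left out, from 2658 without MM replicate 2 to 2808 without MC replicate 1, while the rises ranged from 6889 to 7541.

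**Figure D1:**
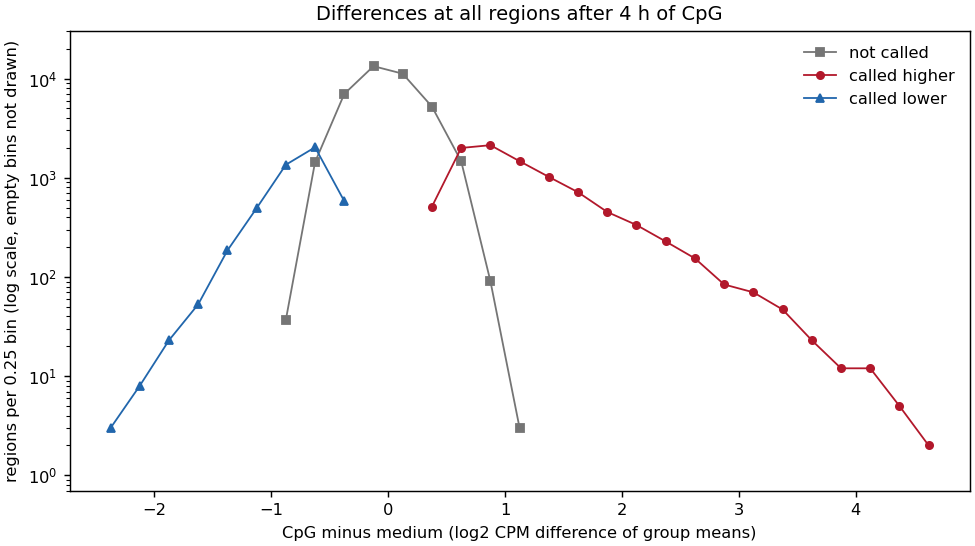
Number of regions (log scale) by the CpG minus medium difference of group means in log2 CPM, in bins of 0.25, for regions called higher, called lower or not called. The called rises reach past 4, whereas the called falls end between -2.5 and -2.25.

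Few of the rises were at known gene starts. RefSeq starts were at hand for 17492 of 21900 protein-coding genes, so a region at another gene's start counts as away from one. Of the 10802 regions within 1 kb of a RefSeq gene start, 4.55% were higher and 5.69% lower in CpG. Of the 41267 farther away on the chromosomes with starts in the reference, 20.5% were higher and 9.57% lower. The share higher was therefore 4.51 times as large away from starts. In the plot of shares by distance from a start, regions centred in the 500 bases before a start were higher in 3.09% of 6059 cases. The share climbed to 10.9% between 500 and 1000 bases upstream and to 23.2% between 2000 and 2500 bases upstream, close to the level farther out. Regions lower in CpG varied less with distance, between 5.10% and 11.1% over the bins within 5 kb. Start regions were also the more accessible ones in medium, with a median of 4.60 log2 CPM against 3.48 farther away. With regions ranked into 4 equal sets by mean level, the share higher was 23.9% in the lowest set and 12.8% in the highest.

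**Figure D2:**
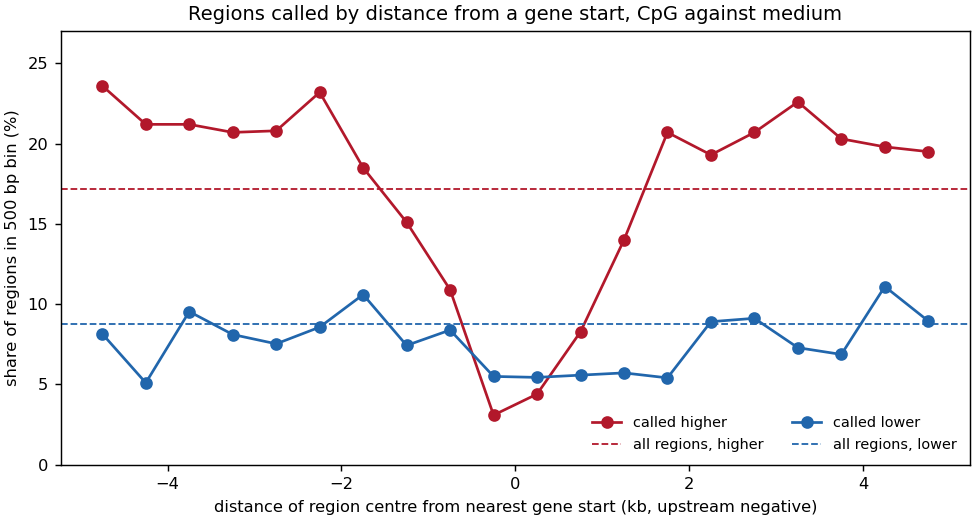
Share of regions called higher or lower in CpG against medium (percent of the regions in each 500 bp bin) by distance of the region centre from the nearest RefSeq gene start in kb, with dashed lines for all regions. The share higher lies between 19.3% and 23.6% in the bins beyond 2 kb and is 3.09% just upstream of a start, and the share lower stays between 5.10% and 11.1%.

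Counts within genes leaned the same way. Among 5378 genes with both a region within 1 kb of a start and a region farther away, 2058 were higher only away from the start, 226 were higher at both and 139 only at the start. For falls the numbers were 1150, 184 and 285. A gene counted once any of its regions was called, and regions away from starts were more numerous, 41267 against 10802 in all. The counts at and away from starts therefore do not compare equal chances. Nfkbia, which encodes the NF-kB inhibitor IkB alpha, was among the genes higher both at a start and farther away. Its region over the gene start (chr12:55492523-55493024, mm10) had 5.54 and 5.43 log2 CPM in the 2 medium libraries and 6.22 and 6.19 in the 2 CpG libraries. Both CpG libraries lay above both medium libraries there, by 0.72 ± 0.13 (SE, adjusted p = 7.47e-05). A region between genes, 24.9 kb downstream of that start (chr12:55467527-55468028), was almost closed in medium at 0.58 and 0.31, and reached 3.74 and 4.33 in CpG, a rise of 3.59 ± 0.26 (SE, adjusted p = 5.43e-13). At Il6, an inflammatory cytokine, the region over the start (chr5:30012662-30013163) rose by 1.13, from 3.54 and 3.68 to 4.70 and 4.77. A region 40.1 kb upstream of the start (chr5:29972732-29973233) rose by 2.38, from 0.58 and 1.13 to 3.28 and 3.20. In neither did the groups overlap. The distal regions shown for Nfkbia and Il6 were those with the smallest p among the regions of each gene.

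CpG opened 139 regions that had at most 5 reads in each medium library and at least 30 in each CpG library. No region went the other way by the same limits, and 4 of the 139 lay within 1 kb of a start. The limits were reads not scaled to depth. Median reads per region were 70 and 40 in the medium libraries and 61 and 68 in the CpG libraries. The shallow second medium library made the limits easier to meet for rises and harder for falls. The regions are also 1 set for all 9 groups, and how they were picked is not given in the sources used here. A site open only in medium may have had less chance to enter that set than a site open after several stimuli. The counts of 139 and 0 therefore do not compare equal chances. A region inside Eml2 (chr7:19202892-19203393), which encodes a microtubule-associated protein, went from 5 and 2 reads in the medium libraries to 127 and 159 reads in the CpG libraries. One between genes nearest to Gk (chrX:85697922-85698423), the glycerol kinase gene on the X chromosome, went from 2 and 0 to 77 and 67 reads. Another inside Siglece (chr7:43667519-43668020), which encodes an inhibitory sialic acid receptor of myeloid cells, went from 1 and 2 to 53 and 98 reads. These sites were near the floor of the assay in medium and well above it in CpG, with log2 differences of 4.38, 4.25 and 3.89. The reads added to every value as a prior make such differences smaller. Choosing sites by few medium reads and many CpG reads makes them larger. The net effect was not tested.

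Some rises lay side by side along the chromosome. With neighbours no more than 20 kb apart, 1578 of the 9269 higher regions were in 422 runs of at least 3, and 223 of the 4730 lower regions were in 67 runs. Higher regions were also the more frequent ones, and the numbers of runs were not tested. Among the long runs, 12 regions lay at Tnfrsf8 and Tnfrsf1b, the latter a TNF receptor (chr4:145252507-145283785, median 1.14), and another 12 at Art3 and Cxcl10 (chr5:92344954-92375784, median 1.05). A run of 10 regions lay at Pde4b, which encodes a cyclic AMP phosphodiesterase (chr4:102570184-102625369, median 1.16). The tightest long run held 9 regions within 7.0 kb at Acod1 (chr14:103051966-103058920), with a median rise of 2.65. Acod1 makes itaconate in activated macrophages. Among single genes, Lyn, a Src-family kinase, had 16 of its 21 regions higher, Slco3a1, an organic anion transporter, 13 of 15, and Cd47, the "do not eat me" surface protein, 12 of 17. The longest run of falls held 6 regions, at Snx24.

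Few regions at the machinery that senses CpG rose. In the list of 11 genes for Tlr9 sensing and processing with a region, 5 of 60 regions were higher and 8 lower (8.33% and 13.3%, against 17.2% and 8.79% of all regions), with a median of -0.03. The shares of all regions are the base for every list below. The start region of Tlr9 (chr9:106222318-106222819) had 4.39 and 4.25 log2 CPM in medium and 3.93 and 4.23 in CpG, and its difference of -0.24 ± 0.17 (SE, adjusted p = 0.32) did not pass the test. At an edge of the chaperone gene Unc93b1 (chr19:3934920-3935421), meaning within 1 kb of either end of the gene, the values were 3.99 and 3.37 and 3.95 and 4.18, a difference of 0.39 ± 0.19 (SE, adjusted p = 0.147). Groups overlapped at Unc93b1 and did not at Tlr9, where both CpG values were lower. The falls of the list were at genes of endosomal proteases, namely Ctsb with 3 of 11 regions, Lgmn with 3 of 8 and Ctsl with 1 of 4, and at the chaperone gene Hsp90b1. The region between genes nearest to Ctsb (chr14:63102978-63103479) fell from 4.14 and 4.23 to 2.93 and 3.14, a difference of -1.15 ± 0.22 (SE, adjusted p = 9.89e-05). The rises included 2 of 6 regions at Plscr1, which encodes a phospholipid scramblase reported to bind Tlr9, among them one inside the gene that went from 2.32 and 1.78 to 4.64 and 4.59.

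Downstream of the receptor, 41 of 100 regions of the MyD88 signalling list were higher and 3 lower, with a median of 0.26. The members were unequal. Regions of Myd88 (0 of 2), Irak4 (0 of 4) and Irak1 (0 of 1), the proximal adaptor and kinases, were not called, while Irak2, a kinase that sustains the signal, had 10 of 17 higher and Irak3, an inhibitory member also named IRAK-M, 9 of 14. Inside Irak3 (chr10:120191153-120191654) the values went from 0.19 and 0.31 in medium to 3.83 and 4.38 in CpG, a rise of 3.85 ± 0.25 (SE, adjusted p = 3.41e-14). Map3k8, the kinase Tpl2 that feeds the ERK pathway, had 5 of 9 regions higher, and the region there with the smallest p (chr18:4315121-4315622) went from 1.44 and 0.90 to 3.87 and 3.31. A region inside Tirap (chr9:35187419-35187920), the bridging adaptor of surface Toll-like receptors, rose by 2.65, from 1.85 and 1.64 to 4.48 and 4.32. In each of these the CpG libraries lay above the medium libraries with no overlap.

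Genes of NF-kB itself were among the most changed. Of 83 regions at the NF-kB subunits and IkB proteins, 45 were higher (54.2%) and 1 lower, with a median of 0.71. Nfkb1 (p50) had 13 of 21 regions higher, Nfkb2 (p52) 3 of 3, Rel (c-Rel) 3 of 8, Relb 1 of 3 and Rela (p65) 0 of 3. Inside Nfkb1 (chr3:135640212-135640713) accessibility rose from 0.58 and 0.90 in medium to 5.03 and 4.97 in CpG, by 4.26 ± 0.19 (SE, adjusted p = 1.86e-18). The IkB genes moved with them, with 8 of 15 regions higher at Nfkbia, 8 of 12 at Nfkbiz and 5 of 9 at Bcl3, which encodes an atypical IkB that partners p50 and p52. At an edge of Nfkbiz (chr16:55838499-55839000), whose product is a nuclear IkB needed for a class of secondary response genes, values went from 4.45 and 4.45 to 6.03 and 6.00, a rise of 1.57 ± 0.12 (SE, adjusted p = 2.13e-12). Medium and CpG values were separated by more than the spread within each pair.

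Negative regulators opened alongside. All 22 genes of the feedback list had at least 1 higher region, against 4367 of all 13785 genes with a region. A gene with more regions has more chances to have 1 called. Of the 160 regions of the list, 70 were higher (43.8%) and 6 lower (3.75%), with a median of 0.37. Socs3, an inhibitor of cytokine receptor signalling, had 9 of 11 higher and Il1rn, the IL-1 receptor antagonist, 6 of 6. Tnip1, which restrains NF-kB with the deubiquitinase A20, had 6 of 8 higher, and the region inside it (chr11:54953981-54954482) went from 0.58 and 0.90 to 3.45 and 3.88, a rise of 2.93 ± 0.22 (SE, adjusted p = 8.79e-13). At Tnfaip3, the gene of A20, a region inside the gene (chr10:19009300-19009801) rose by 1.42, from 4.14 and 3.75 to 5.34 and 5.39. The more accessible start region of Tnfaip3 (chr10:19015079-19015580) differed by 0.45, and lost its call when any 1 of the 4 libraries was left out. Zc3h12a, which encodes the RNase Regnase-1, had 5 of 10 higher, with 4.77 and 4.73 in medium against 6.14 and 6.08 in CpG at a region inside it (chr4:125124718-125125219). Among the dual-specificity phosphatases that switch off MAP kinases, Dusp1 had 1 of 11 regions higher and Dusp4 had 2 of 11.

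Cytokine genes had 52 of 101 regions higher and 2 lower (median 0.57). All regions were higher at Tnf (4 of 4), Il27 (5 of 5) and Il6 (2 of 2), and 4 of 5 at Il1a. Both chains of IL-12 responded. Upstream of Il12b, the p40 chain, a region 9.8 kb before the start (chr11:44389981-44390482) went from 4.46 and 4.25 to 6.50 and 6.44, a rise of 2.11 ± 0.12 (SE, adjusted p = 1.48e-15). At the far edge of Il12b (chr11:44414555-44415056) the values were 5.18 and 5.18 in medium and 5.28 and 4.86 in CpG, which overlapped. Inside Il12a, the p35 chain (chr3:68693367-68693868), accessibility rose from 2.22 and 1.64 to 4.57 and 4.66, by 2.69 ± 0.21 (SE, adjusted p = 3.97e-12). Il10, an anti-inflammatory cytokine, had 5 of 8 higher, led by a region between genes (chr1:130997469-130997970) that went from 1.44 and 1.78 to 3.48 and 4.05, whereas the region at an edge of Il10 (chr1:131025782-131026283) had a difference of 0.41 (adjusted p = 0.0436) that was not called after quantile normalization, median shifting or voom, nor without either CpG library or MM replicate 2. Ifnb1, the type I interferon gene, had 0 of 3 regions called, and Tnfsf9, a T cell costimulator, 0 of 4.

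For chemokines, 32 of 67 regions were higher and 5 lower (median 0.51). Ccl5, which attracts T cells and monocytes, had 7 of 7 higher, Cxcl10, an interferon-induced T cell attractant, 3 of 3, and Ccl4 had 6 of 7 higher and 1 lower. At an edge of Ccl5 (chr11:83530280-83530781) values went from 0.88 and 0.31 in medium to 3.58 and 3.79 in CpG, a rise of 3.09 ± 0.27 (SE, adjusted p = 5.16e-11). Over the start of Cxcl10 (chr5:92348709-92349210), the promoter printed above, they went from 3.67 and 3.37 to 4.96 and 5.11, a rise of 1.52 ± 0.15 (SE, adjusted p = 4.87e-10). The neutrophil attractant Cxcl2 had a start region that was open in medium already (chr5:90903426-90903927, 5.10 and 5.27) and reached 6.27 and 6.39, a rise of 1.15. Ccl6, Ccl8, Ccl17 and Cxcl3 had 0 higher regions among 6, 1, 2 and 1.

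Interferon-stimulated genes had many rises. Of the 48 genes with a region, 42 had at least 1 higher, against 4367 of all 13785 genes with a region. Of 180 regions, 108 were higher (60%) and 2 lower, with a median of 0.64. This was the largest share higher of the 25 lists, but after quantile normalization 76 of 180 were higher, a smaller share than the 40 of 83 of NF-kB and IkB genes and the 45 of 101 of cytokines. Rsad2 (viperin) had 9 of 13 higher, Gbp5, a guanylate-binding protein, 7 of 9, Ifit2 6 of 8, Trim30a 6 of 7 and Parp14 4 of 4. Inside Parp14 (chr16:35843890-35844391), an ADP-ribosyltransferase, accessibility rose from 3.78 and 3.61 to 5.85 and 5.80, by 2.13 ± 0.15 (SE, adjusted p = 1.75e-13). Over the start of Gbp5 (chr3:142496570-142497071) it rose from 3.52 and 3.45 to 5.32 and 5.21, by 1.78 ± 0.15 (SE, adjusted p = 1.78e-11). At Ifi205, a member of a family of DNA-binding proteins with near-identical copies, whose reads are therefore uncertain, the start region (chr1:174031599-174032100) went from 3.48 and 3.49 to 5.20 and 5.07.

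The genes that carry the interferon signal were closer to the background, with 28 of 136 regions higher (20.6%) and 6 lower (median 0.06). At Irf7, a regulator of type I interferon, the start region (chr7:141266208-141266709) rose by 1.13, from 3.72 and 3.64 to 4.84 and 4.79. Irf5, which acts downstream of Myd88, had 1 of 5 regions higher, and a region inside the gene (chr6:29528950-29529451) had 5.57 and 5.48 in medium and 5.13 and 5.37 in CpG without a call. The receptor genes Ifngr1 and Ifngr2 had 0 of 5 and 0 of 6 higher. Jak1, the kinase shared by interferon receptors, had 1 of 14 higher and 1 lower.

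Among AP-1, C/EBP and immediate early factors, 44 of 209 regions were higher (21.1%) and 14 lower, with a median of 0.05 that turned to -0.02 after quantile normalization. The list was split by gene. Batf, an AP-1 factor of lymphoid and myeloid activation, had 8 of 8 higher, and a region inside the gene (chr12:85703383-85703884) went from 1.13 and -0.10 to 3.72 and 4.28, a rise of 3.48 ± 0.31 (SE, adjusted p = 5.47e-11). Junb had 4 of 7 higher and Cebpb, a C/EBP factor of inflammatory macrophages, 3 of 6. A region 32.7 kb upstream of Klf6 (chr13:5828588-5829089), a zinc finger factor, rose from 2.99 and 3.08 to 5.49 and 5.65, by 2.53 ± 0.17 (SE, adjusted p = 4.79e-14). Immediate early genes, which respond within minutes of a stimulus, were mixed. Jun (11 regions), Egr1 (5), Egr2 (5) and Nr4a3 (4) had 0 called, Fos had 5 of 16 higher and 1 lower, Atf3 had 4 of 13 higher, Nr4a1 had 1 of 7 higher and 2 lower, and Fosb had 0 of 6 higher and 2 lower. Myc, a driver of growth, had 3 of 7 regions lower and 0 higher.

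**Figure D3:**
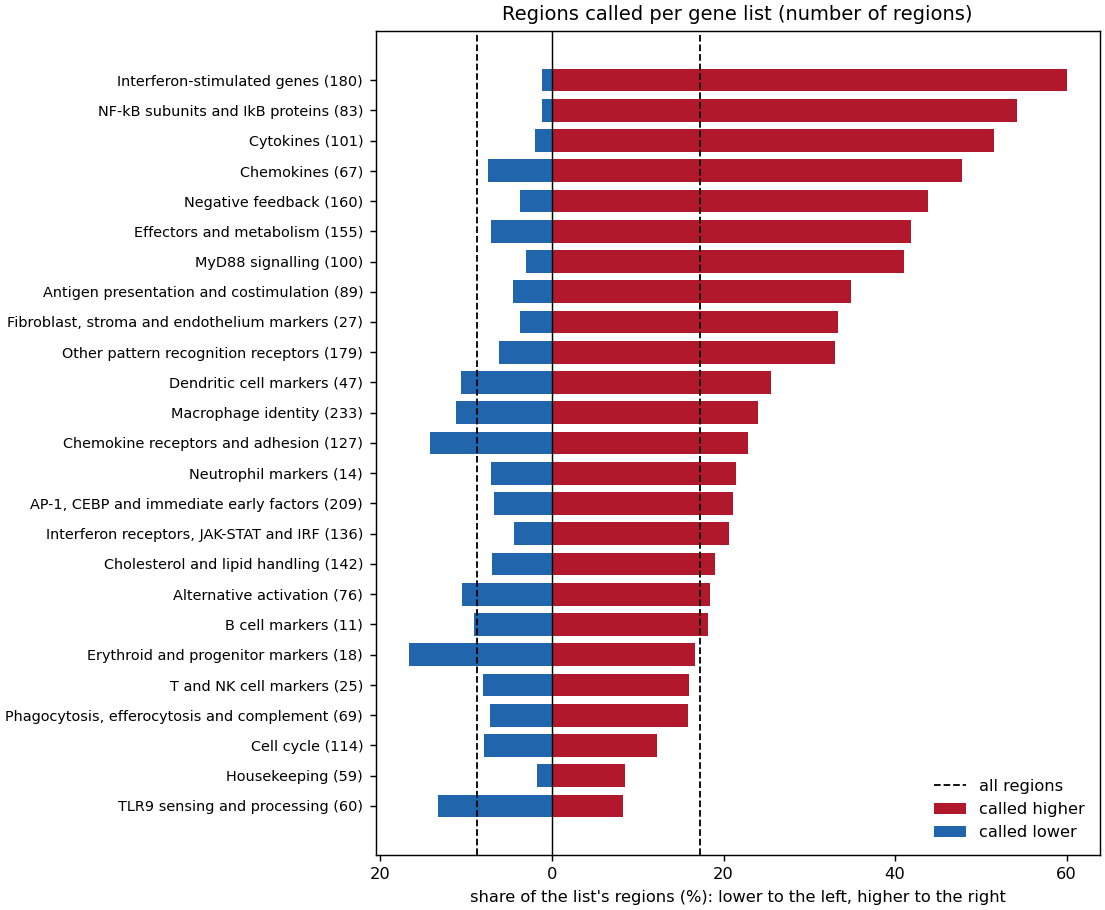
Share of each gene list's regions (percent, number of regions in brackets) called higher (right) or lower (left) in CpG against medium, with dashed lines at 17.2% and 8.79% for all regions. Interferon-stimulated genes (60%), NF-kB and IkB genes (54.2%) and cytokines (51.5%) have the largest shares higher, and Tlr9 sensing (8.33%) and housekeeping genes (8.47%) the smallest.

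Genes that define macrophages moved in both directions. Of 233 regions of the identity list, 56 were higher (24%) and 26 lower (11.2%), with a median of 0.04 (-0.02 after quantile normalization). Rises were spread over 18 genes of the list, with the highest counts at the transcription factors Zeb2 (11 of 20), Ikzf1 (10 of 18) and Mitf (9 of 21). Inside Ikzf1 (chr11:11762020-11762521), which encodes Ikaros, values went from 2.16 and 1.78 to 4.11 and 4.13, and inside Mitf (chr6:97961823-97962324), from 2.42 and 2.23 to 4.52 and 4.38. The falls included Mef2c (4 of 15, 1 higher), Mef2a (3 of 9, 1 higher) and Csf1r (2 of 10), the M-CSF receptor on which these cells were grown. The more accessible of these Csf1r regions (chr18:61108396-61108897), inside the gene, fell from 6.22 and 6.36 to 5.56 and 5.73, a difference of -0.64 ± 0.14 (SE, adjusted p = 0.000688). A weaker one (chr18:61122535-61123036), also inside, fell from 2.99 and 2.64 to 1.42 and 0.94, a difference of -1.64 ± 0.31 (SE, adjusted p = 8.56e-05). At Spi1, the gene of the lineage factor PU.1, the region at an edge (chr2:91082829-91083330) had 5.11 and 5.19 in medium and 5.34 and 5.40 in CpG and was not called, and a region inside the gene (chr2:91087756-91088257) rose by 0.90.

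Alternative activation genes, which mark macrophages exposed to IL-4, had 14 of 76 regions higher and 8 lower (18.4% and 10.5%, median -0.05), close to all regions. Of the rises, 6 were at 1 gene, Pdcd1lg2, which encodes the checkpoint ligand PD-L2. Inside Igf1 (chr10:87908763-87909264), a growth factor of resting macrophages, accessibility fell from 4.47 and 3.85 to 2.37 and 2.45, a difference of -1.75 ± 0.23 (SE, adjusted p = 2.3e-07). The only region of Retnla, between genes (chr16:48831176-48831677), fell from 3.94 and 3.78 to 2.25 and 1.31. At an edge of Tgm2 (chr2:158145324-158145825), a transglutaminase, accessibility rose from 3.65 and 3.81 to 4.74 and 4.98. Counted by gene, Tgm2 had 2 of 9 regions higher and 2 lower, and Igf1 had 0 of 9 higher and 1 lower.

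Effector and metabolic genes had 65 of 155 regions higher and 11 lower (median 0.34). Acod1 had 17 of 22 higher, Mmp14, a membrane matrix metalloproteinase, 4 of 4, Slc7a11, the cystine importer, 6 of 12, and Hk2, a hexokinase of glycolysis, 7 of 15. Over the start of Acod1 (chr14:103046654-103047155) values went from 2.46 and 2.57 to 5.16 and 5.42, a rise of 2.78 ± 0.14 (SE, adjusted p = 5.77e-17). Inside Slc7a11 (chr3:50402390-50402891) they went from 3.31 and 3.32 to 5.39 and 5.29, a rise of 2.03 ± 0.14 (SE, adjusted p = 1.61e-13). At Nos2, the inducible nitric oxide synthase, the region at an edge (chr11:78920419-78920920) rose by 1.13 and a region between genes (chr11:78886967-78887468) by 2.70, from 2.79 and 1.32 to 4.50 and 5.01. The 2 medium values of the latter lay far apart, but both were below the CpG values.

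Receptors for other microbial products had 59 of 179 regions higher and 11 lower (median 0.22). Formyl peptide receptors had 6 of 6 higher at Fpr1 and 6 of 9 at Fpr2, the scavenger receptor Marco had 8 of 11, and Nod1, a peptidoglycan sensor, had 6 of 9. Tlr4, the LPS receptor, went the other way, with 4 of 11 lower and 1 higher. Tlr3 had 0 of 3 called and the cytosolic DNA sensor Cgas 0 of 2. For antigen presentation and costimulation, 31 of 89 were higher and 4 lower (median 0.36), although 20 were higher after quantile normalization. Tnfsf4, the ligand of OX40, had 5 of 6 higher, and a region between genes there (chr1:161361654-161362155) went from 3.06 and 3.57 to 4.79 and 4.78. Cd80 fell inside the gene (chr16:38476151-38476652), from 4.29 and 4.16 to 2.68 and 3.10, a difference of -1.33 ± 0.22 (SE, adjusted p = 1.8e-05).

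Cholesterol and lipid genes had 27 of 142 higher and 10 lower (median 0.02, -0.05 after quantile normalization), with 6 of 17 higher at the cholesterol exporter Abca1 and 3 of 12 lower at the scavenger receptor Cd36. Phagocytosis, efferocytosis and complement genes had 11 of 69 higher and 5 lower, including both regions of complement factor B (Cfb). Chemokine receptors and adhesion molecules had 29 of 127 higher and 18 lower, and here the falls were at 14.2% against 8.79% overall. The lower regions included 5 of 12 at Itgav, 3 of 7 at its partner Itgb3 and 4 of 6 at the chemokine receptor Cxcr4, while Ccr7, the lymph node homing receptor, had 2 of 3 higher. One of them (chr11:99164757-99165258) went from 1.91 and 2.49 to 5.02 and 4.74. Cell cycle genes had 14 of 114 higher and 9 lower (median -0.12), with 6 of the rises at Cdk6. Housekeeping genes had 5 of 59 higher (8.47%) and 1 lower (1.69%), both below the shares of all regions, and 1 higher after quantile normalization.

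The marker lists of other cells had from 11 to 47 regions each. The base is 17.2% higher and 8.79% lower over all regions. T and NK cell markers had 4 of 25 higher (16%) and 2 lower, and B cell markers 2 of 11 (18.2%) and 1. Neutrophil markers had 3 of 14 higher (21.4%) and 1 lower, and dendritic cell markers 12 of 47 (25.5%) and 5. Erythroid and progenitor markers had 3 of 18 higher (16.7%) and 3 lower. Fibroblast, stroma and endothelium markers had 9 of 27 higher (33.3%, above the base), at Pecam1, Pdgfrb, Dcn, Acta2 and Cdh5, and 1 lower. A region near Dcn (chr10:97442321-97442822), the gene of the proteoglycan decorin, went from 1.13 and 0.31 to 3.68 and 3.44.

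The largest falls were smaller than the largest rises and were at a mixed set of genes. The largest named falls included a region inside Hsf3, a heat shock factor gene, with -2.38. The next was at an edge of Acot13 (chr13:24816531-24817032), a thioesterase gene, which fell from 6.05 and 5.70 to 3.45 and 3.67, a difference of -2.32 ± 0.19 (SE, adjusted p = 1.08e-11). Inside Nrp1 (chr8:128435680-128436181), a semaphorin and VEGF co-receptor, accessibility fell from 4.15 and 3.91 to 2.25 and 1.92, a difference of -1.95 ± 0.25 (SE, adjusted p = 1.97e-07). Inside Foxp1 (chr6:99420579-99421080), a forkhead factor that restrains monocyte differentiation, it fell from 2.83 and 2.97 to 0.72 and 0.94, a difference of -2.07 ± 0.33 (SE, adjusted p = 6.12e-06). Foxp1 moved both ways, with 10 of its 39 regions higher and 7 lower. A region near Selenop (chr15:3232517-3233018), the selenium carrier, went from 3.58 and 3.08 to 1.04 and 1.41, and one inside Hs3st1 (chr5:39630772-39631273), a heparan sulfate enzyme, from 5.66 and 5.62 to 3.95 and 3.56. The 2 groups did not overlap at any of these sites, which was a condition for choosing them.

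**Figure D4:**
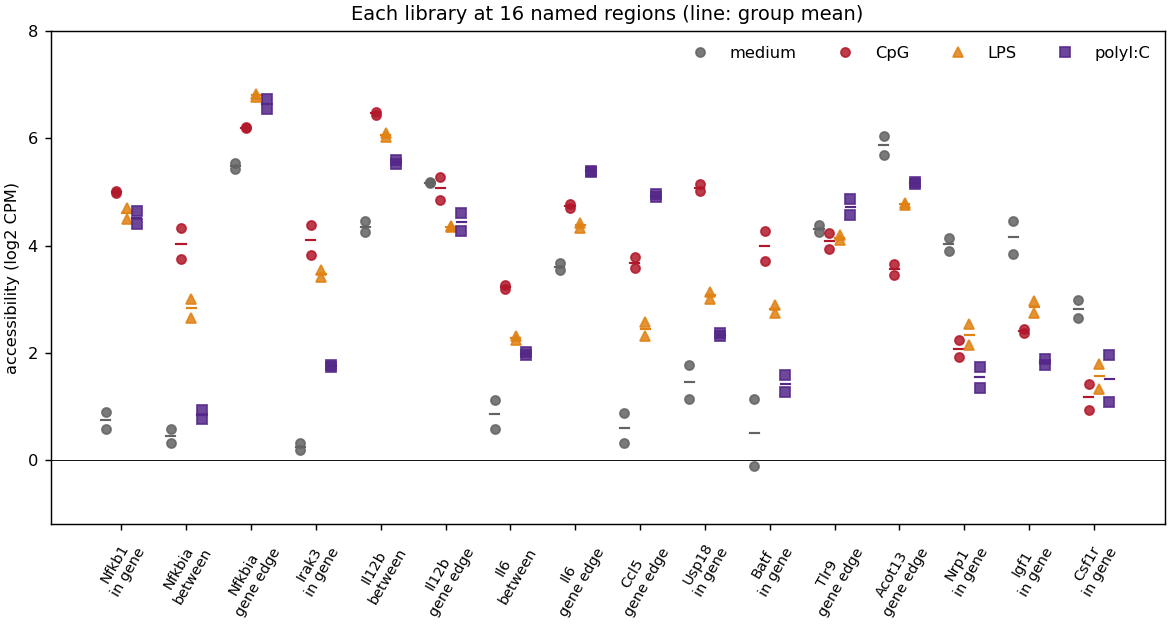
Accessibility in log2 CPM of each library (points) and the group mean (line) at 16 named regions, for medium, CpG, LPS and polyI:C, with each region inside a gene, at a gene edge or between genes. At the region inside Usp18 the 2 CpG libraries lie at 5.02 and 5.15, above medium, LPS and polyI:C, while at an edge of Ccl5 polyI:C is highest.

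MicroRNA genes were examined from a list of 19 with a region within 50 kb, added after the region values had been seen, and its counts are set beside the 17.2% of all regions that were higher and the 8.79% that were lower. Around Mir155, whose product represses inhibitors of inflammatory signalling, 10 of 14 regions were higher and 1 lower, and they formed a run of 20.2 kb (chr16:84701000-84721188) with a median rise of 2.88. A region 0.6 kb from the hairpin (chr16:84713025-84713526) went from 2.04 and 1.32 in medium to 5.44 and 5.63 in CpG, a rise of 3.85 ± 0.18 (SE, adjusted p = 2.02e-17). The same region had 4.62 and 4.81 with LPS and 5.75 and 5.73 with polyI:C. MiR-146a and miR-146b, which share the seed printed above, target Irak1 and Traf6 mRNAs and act as feedback on Myd88 signalling. Around Mir146, which encodes miR-146a, 8 of 14 regions were higher and 1 lower, led by a site 35.8 kb from the hairpin (chr11:43410277-43410778) that went from 2.16 and 1.78 to 5.12 and 5.05, a rise of 3.12 ± 0.17 (SE, adjusted p = 3.38e-16). Around Mir146b 6 of 13 were higher, led by a site 1.5 kb away (chr19:46340776-46341277) that went from 3.14 and 2.64 to 5.28 and 5.26. Of those 6, 3 lie inside the neighbouring gene Nfkb2 and are counted there too.

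Around Mir21a 7 of 14 regions were higher, 3 of them inside the neighbouring gene Vmp1, and around Mir125a and Mirlet7e, which sit together beside the formyl peptide receptor genes, 6 of 9. Near Mir147 a site 24.6 kb away (chr2:122665460-122665961) rose from 3.20 and 2.85 to 5.94 and 6.03, by 2.96 ± 0.15 (SE, adjusted p = 5.77e-17). Mir147 had 2 of 7 regions higher in all. The myeloid microRNA genes Mir223 and Mir142 had 1 of 3 higher and 0 of 11 higher with 1 lower. Of the rest of the list, Mir210 had 3 of 12 higher, Mir511 had 1 of 8, and Mir132 and Mir212, which lie together, had 1 of 11 higher and 1 lower. The cluster of Mir23a, Mir27a and Mir24-2 had 1 of 18 higher and 2 lower. Mir9-1, Mir9-2 and Mir9-3 had 0 of 2, 0 of 1 and 1 of 2 higher, and Mir9-1 had 1 lower.

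**Figure D5:**
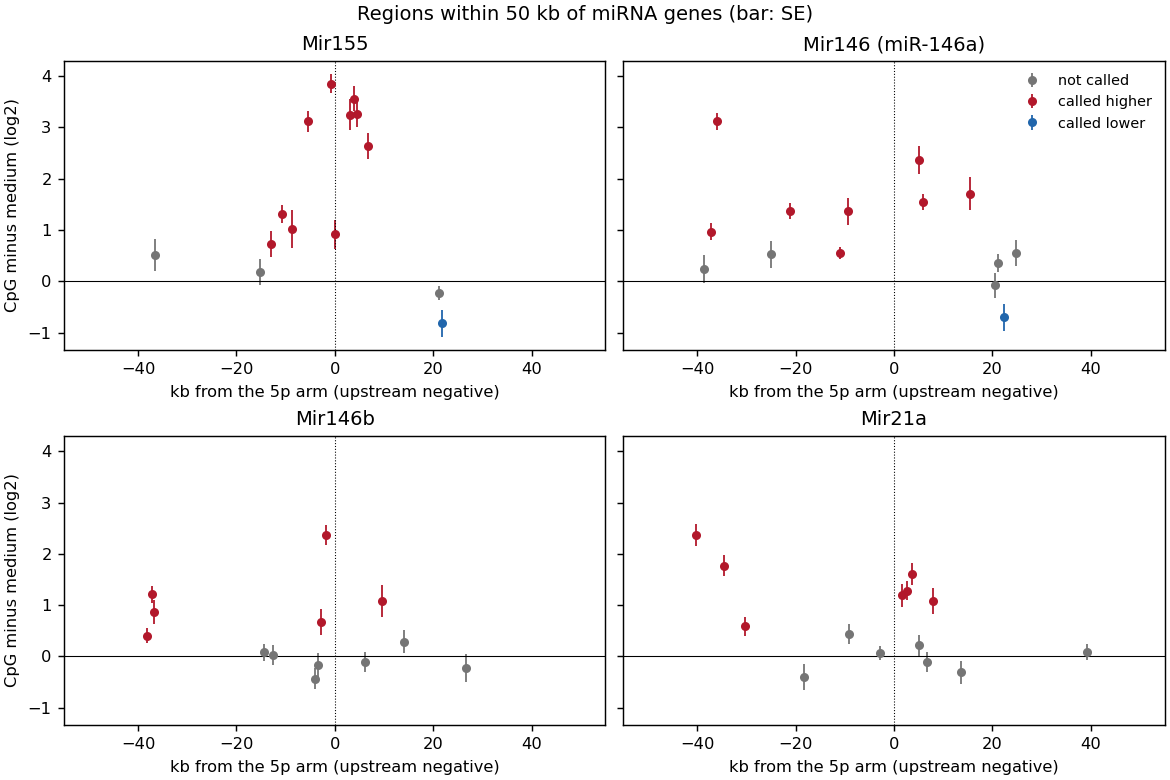
CpG minus medium difference in log2 CPM (points, bars are SE) of each region within 50 kb of 4 microRNA genes, by distance from the 5p arm in kb along the direction of the gene. At Mir155 the largest rises, 2.63 to 3.85, lie from 5.37 kb before to 6.78 kb after the arm, and at Mir146 the largest lies at -36.08 kb.

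Promoter sequence was read for the 6269 RefSeq start windows (250 bases before to 50 after) that lay whole within a region. The windows in higher regions had fewer CpG dinucleotides than those in other regions, with a median of 7 in the 160 windows called higher, 22 in the 327 called lower and 23 in the 5782 not called. The NF-kB letters GGGNNTTNC, read on both strands, were in 36.9% of the higher windows, 19.0% of the lower ones and 18% of those not called, and in 15.6% of all 21263 windows in the reference. The ISRE letters GAAANNGAA were in 26.2%, 5.81%, 6.42% and 8.15%. A TATAAA match was in 16.9% of the higher windows and 5.07% of those not called, while GGGCGG, the GC box, was in 43.8% and 71.7%. These shares are a description of sequence letters and show no binding.

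Direct comparison with LPS found fewer differences than comparison with medium. In CpG against LPS, 2010 regions were higher (3.74%) and 1037 lower (1.93%), and leaving out any 1 of the 4 libraries gave from 344 (without MC replicate 1) to 916 higher and from 100 (without ML replicate 1) to 479 lower. Interferon-stimulated genes had 50 of 180 regions higher in CpG (27.8%) and 0 lower, with a median of 0.42 against 0.03 over all regions. Leaving out any 1 library gave 12 to 31 higher and 0 lower, with medians from 0.38 to 0.46. The region inside Usp18 (chr6:121249964-121250465), the enzyme that removes ISG15, had 5.02 and 5.15 with CpG, 3.00 and 3.14 with LPS and 1.13 and 1.78 in medium, and the difference of CpG from LPS was 2.01 ± 0.25 (adjusted p = 4.83e-06). At Ccl5 it was 1.24 ± 0.27 (adjusted p = 0.00502), at Gbp5 0.73 ± 0.15 (adjusted p = 0.00292). In contrast, Cxcl10 and Acod1 start regions had differences of 0.01 ± 0.15 (adjusted p = 0.985) and 0.02 ± 0.14 (adjusted p = 0.966). NF-kB and IkB genes had 9 of 83 higher and 3 lower, and the Nfkbia start region differed by -0.60 ± 0.13 (adjusted p = 0.00539), and its distal region by 1.21 ± 0.26 (adjusted p = 0.00468). The 6 largest differences in favour of CpG included a region near Itgb2 (chr10:77526724-77527225), the common beta chain of leukocyte integrins, with 3.21 and 3.46 against 1.10 and 0.21, and one near Bace2 (chr16:97445282-97445783), with 4.11 and 3.51 against 1.22 and 1.37. On the side of LPS, a region near Fos (chr12:85513519-85514020) had 4.49 and 4.51 against 2.81 and 3.14 with CpG, a difference of -1.53 ± 0.27 (adjusted p = 0.000483).

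Against polyI:C, with its pair of libraries counted as 1 sample, 4016 regions were higher with CpG (7.47%) and 2799 lower (5.2%). Without MC replicate 1 they were 2461 and 1682. Here the interferon-stimulated genes were on the other side, with 7 of 180 higher and 46 lower (median -0.35). Interferon receptor, JAK-STAT and IRF genes had 3 of 136 higher and 19 lower, and antigen presentation genes 2 of 89 higher and 14 lower. MyD88 signalling genes had 21 of 100 higher and 8 lower, and the region inside Irak3 differed by 2.35 ± 0.31 (adjusted p = 1.74e-06). At Ccl5 the values were 4.90 and 4.97 with polyI:C and 3.58 and 3.79 with CpG, a difference of -1.25 ± 0.34 (adjusted p = 0.00981). A region inside Cmpk2 (chr12:26476456-26476957), an interferon-induced nucleotide kinase gene, had 4.32 and 4.16 with polyI:C, 1.31 and 0.63 with CpG and 1.01 and 0.31 in medium. The reverse held inside Pou2f1 (chr1:165927851-165928352), the gene of Oct-1, which had 4.10 and 4.00 with CpG, 0.77 and 0.07 with polyI:C and 0.58 and 0.64 in medium. The ligands were used at 1 dose each, and the comparisons hold at these doses only. Both comparisons share the CpG libraries with CpG against medium.

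The CpG effect was also read in libraries that share none with this contrast, namely CpG for 4 h and then TNF for 4 h (CT) against medium and then TNF (MT). There 5727 regions were higher (10.6%) and 3039 lower (5.65%), or 3464 and 1248 without CT replicate 2 and 3630 and 1200 without MT replicate 2. Of the 9269 regions that rose with CpG alone, 3950 (42.6%) were also higher in CT, which is 69.0% of those higher there, and 71 were lower. Of the 4730 that fell, 1260 (26.6%) were also lower in CT, which is 41.5% of those lower there, and 47 were higher. The NF-kB and IkB genes had 31 of 83 regions higher and the interferon-stimulated genes 62 of 180. The distal region of Nfkbia had 4.41 and 4.39 in CT and 0.97 and 0.70 in MT, a difference of 3.57 ± 0.26 (adjusted p = 3.67e-12), and Batf had a difference of 3.58 ± 0.31 (adjusted p = 1.33e-10). Start regions of Cxcl10 and Gbp5 differed by 0.03 ± 0.15 (adjusted p = 0.913) and 0.16 ± 0.15 (adjusted p = 0.525), which did not pass. Cxcl10 had 4.75 and 4.64 in CT, 4.63 and 4.69 in MT, and 3.67 and 3.37 in MM. Gbp5 had 4.41 and 4.38 in CT, 4.12 and 4.35 in MT, and 3.52 and 3.45 in MM. Both CT and MT thus lay above MM at these starts, and TNF alone against medium was not tested. Among the falls, Acot13 had 4.96 and 5.22 in CT and 5.63 and 5.06 in MT, a difference of -0.25 ± 0.19 (adjusted p = 0.418), and Igf1 a difference of 0.62 ± 0.23 (adjusted p = 0.0614), and Hs3st1 a difference of -1.08 ± 0.19 (adjusted p = 7.45e-05). Since the second stimulus differs between the 2 settings, time since CpG and the presence of TNF cannot be told apart. Differences between replicates 1 and 2 correlated across regions at 0.206 between CT and MC, and the source of this was not tested.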

How the data were processed

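ATAC-seq libraries of mouse BMDMs were deposited by the authors as 1 table of log2 CPM values over 53796 regions of mm10 (GRCm38). Per the submitters' processing notes, the authors' tools included MACS3 3.0.0b1, featureCounts, Picard, Bowtie2 2.2.5 and SAMtools 1.9, whose roles and order are not given in the sources used here. The low values of the table are steps of whole reads, and reads recovered from them were whole for 100% of values within 0.01 of a read, with an added prior that averaged 3 reads. They served for depth, read counts and an alternative fit.

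Differences came from limma 3.58.1 (R 4.3.3, Python 3.11.15) with trended empirical Bayes variances over all 9 groups, and p-values were adjusted by Benjamini-Hochberg over all regions (called under 0.05). The 2 MP libraries, which agree within counting noise (chi-square per degree of freedom 1.003, p = 0.285), were averaged to 1 sample. The fit was tested on simulated data. Differences between replicates 1 and 2 correlated across regions at 0.0 between MC and MM. Between other groups the correlations ran from -0.358 (CT with PT) to 0.242 (MT with PT), with 0.206 for CT with MC. Replicate numbers were not used as pairs in the main fit.

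Regions were assigned to the nearest protein-coding gene within 50 kb, from RefSeq GRCm38.p6, and a run joined called neighbours up to 20 kb apart. Of 514 genes in 25 lists, 509 matched the reference and 469 were nearest to a region. Named regions were the 12 largest changes each way, the 4 called regions with the smallest p in each list, 2 regions for each of 19 core genes, and the 6 largest each way against LPS and polyI:C. The largest changes were taken only among called regions whose libraries did not overlap between the groups. The higher group mean had to reach at least 1 log2 CPM, and 1 region was kept per gene. A few others (Siglece, Irgm1 and the microRNA sites) were chosen after their values were seen, as were the microRNA list and the motifs. Forms of the NF-kB and ISRE motifs that were 1 letter longer were searched first. Counts for those longer forms are not given here. The contrast, lists and rules were chosen with earlier results of these data known.

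Alternatives were quantile normalization, a median shift, a filter on low regions, log2(CPM + 1), voom on recovered reads, a fit of only the groups compared, the MP libraries as 2 samples, a replicate block, leaving out each library and, chosen after seeing the data, leaving out the PT libraries. No genome sequence was used.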

Additional observations from a re-analysis of the deposited data

How the results depend on the processing

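For CpG against medium, quantile normalization gave 6476 higher and 4984 lower regions, so that 56.5% of calls were higher against 66.2% as reported. It was 62.4% after dropping regions under the 25th percentile of mean level, which left 5930 higher, with fewer regions tested. Leaving out 1 library gave 6889 to 7541 higher and 2658 to 2808 lower. The replicate block gave 9163 and 4643, although replicate differences of MC and MM had a correlation of 0.0. It gave no MC against MP value, since the MP libraries entered as 1 sample.

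For MC against ML, regions higher were 1219 with the filter, 4907 with only the groups compared and 3474 without the PT libraries, and 344 to 916 with 1 library left out. Regions lower were 1817 with voom, 3640 with only the groups compared, 2376 without PT, and 100 to 479 with 1 library left out. For MC against MP, regions higher were 2609 with the filter, 6157 with voom, 6524 with MP as 2 samples, and 2461 to 2693 with 1 library left out. Regions lower were 1608, 5470 and 5374 under the same settings, 4577 with only the groups compared, and 1682 to 1749 with 1 library left out. For CT against MT, regions higher were 3230 with the filter and 3464 to 4090 with 1 library left out, and regions lower 1200 to 2017. The cause was not tested.

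The ratio of shares higher away from and at starts ranged from 3.71 to 5.1, and the share of CpG rises also higher in CT from 37.5% to 45.5%. Of the 140 named regions, the filter on low regions kept 99, and the other 12 alternatives tested all of them. Over the 13 alternatives, 1738 values kept direction and call, 40 lost the call, 1 (Unc93b1 without MM replicate 1) gained it and 0 changed sign.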
